A study of Arabidopsis thaliana with 12 samples.

Results

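Of 692 array probes that stand for 1 gene each, 92 had no zero in any sample and a mean deposited intensity of 1 or more over the water samples, and 25 of these are described here as bright probes whose mean hardly differed between paraquat and water. The members were chosen from the readout itself: after quantile normalization and log2, the paraquat mean minus the water mean had to lie under 0.4 either way, which is a change of less than 1.32-fold. Of the 30 probes that met this, 5 of 11 genes left out by name were set aside (PSAN, PSBW, PSBY, NdhN and AT1G74470). The whole table holds 3439 probes. Every value of this contrast is therefore a description of the choice and carries no test.

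The samples are total RNA of wild-type Arabidopsis plants of ecotype Landsberg. In 6 samples the plants were treated with water and in 6 with 50 µM paraquat. Both groups had spent 12 h in darkness and were then in light for 30 min. The labels give no organ, age or number of plants, and do not say whether the samples numbered 1 to 6 come from separate plants, so the spread between samples may be technical. Column means of the deposited intensities lay between 0.944 and 1.07, and a probe's intensity is read only against the same probe in other samples.

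Paraquat is a herbicide that diverts electrons of illuminated photosystem I to oxygen, which yields superoxide and then hydrogen peroxide in the chloroplast. Transcripts that keep their level under such a treatment are of practical use, since expression studies scale their measurements on genes taken to be steady. A transcript can seem steady for different reasons, because its level is the same in every sample or because differences of opposite sign cancel in the mean. A small mean difference can also come with a spread too wide to tell. The samples behind each mean are therefore described below, and which reason applies was not tested.

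The name "unmoved" goes further than these data. The 25 differences ran from -0.34 to 0.37 with a median of 0.06, 13 above 0 and 12 below. Their standard errors lay between 0.083 and 0.50 (n = 6 per group), with a median of 0.199, so that the 95% interval of the linear model extended a median of 0.435 to either side. The interval lay wholly inside 0.4 either way for 7 genes, reached beyond it for 18, and reached beyond 1 for CCL, AT4G27700 and AT5G52810. Of the 25, 1 passed limma's threshold against 52.5% of all probes; the rule chose on this contrast, so nothing is read from that count. The samples of both groups overlapped in all 25, while 34.6% of all probes had groups that did not. In 3 of the 25, AT2G47360, AT2G29870 and AT1G07460, the numbered pairs all went the same way, against 55% of all probes.

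**Figure D1:**
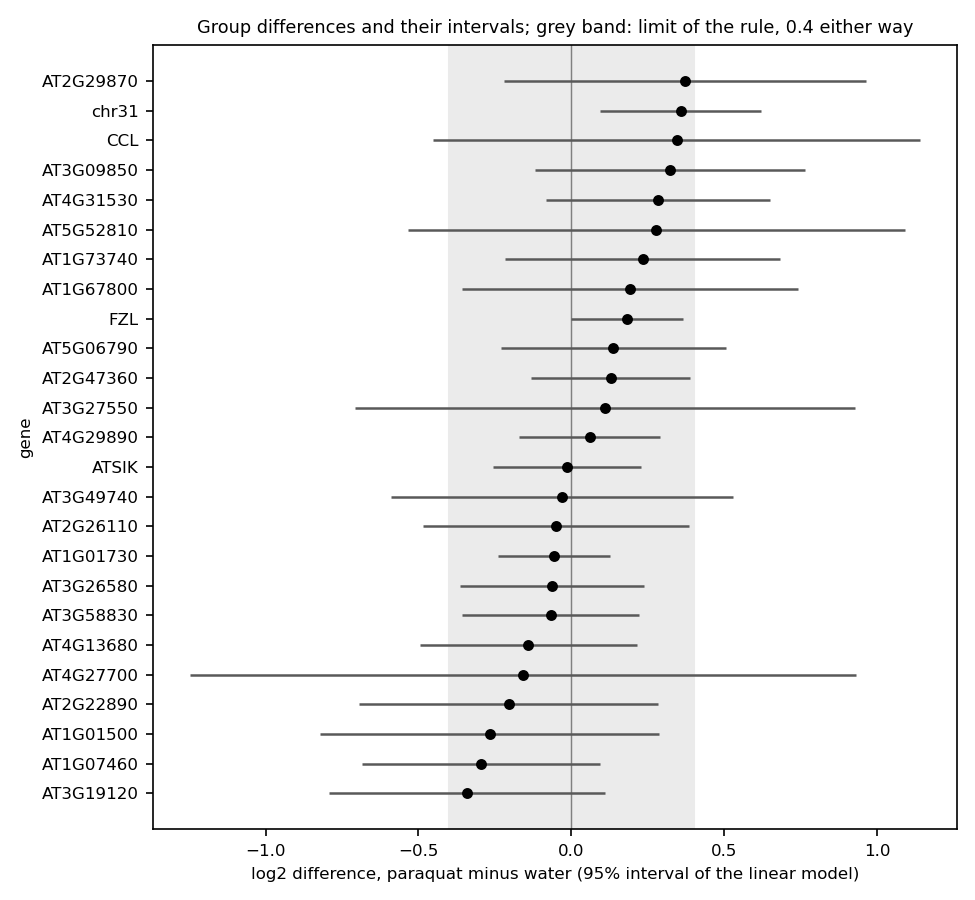
Paraquat minus water in log2 units (x axis) for each of the 25 genes (y axis), with points for the difference and lines for the 95% interval of the linear model over 6 samples per group. The grey band is the limit of 0.4 either way, and 7 of the 25 lines stay inside it. The fit treats the 6 samples of a group as separate. With neighbouring numbers averaged, 2 of 25 intervals stay inside the band (not drawn).

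The array tables used here give a symbol to CCL, FZL, ATSIK and chr31, and only a locus code to the other members. Roles named for locus codes are general background on these Arabidopsis genes. By such roles 5 members belong to plastid membranes and plastid metabolism, 4 to signalling and stress and 4 to other metabolism and transport. Another 6 are grouped as handling nucleic acids or resembling proteins that do. The last 6 are given no role. Below, values per sample are quantile normalized intensities in arbitrary units, and each difference is the paraquat mean less the water mean in log2 units.

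**Figure D2:**
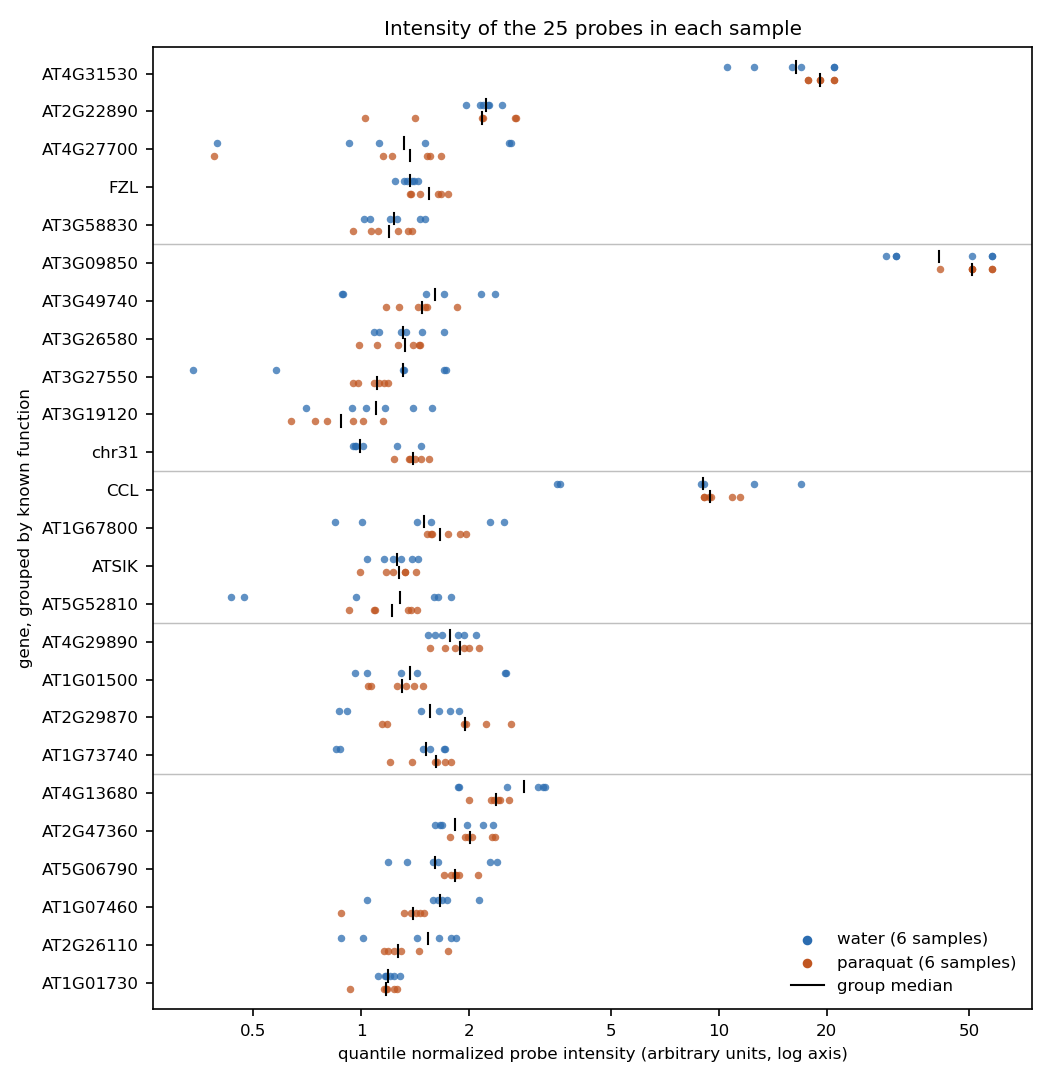
Quantile normalized intensity on a log axis (x) for each gene (y), with 1 point per sample, blue for water and orange for paraquat, and a black tick at each group median. Horizontal lines part the classes of gene function, and the points of both groups overlap in all 25 genes.

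Among the plastid genes the differences ran from -0.21 to 0.28, 2 above 0 and 3 below. FZL (AT1G03160), a dynamin-related GTPase that shapes thylakoid membranes, ran from 1.25 to 1.45 with a median of 1.37 under water. Under paraquat it ran from 1.37 to 1.75 with a median of 1.55. The groups overlapped at their edges, and paraquat was the higher in 5 of 6 numbered pairs. The difference was 0.18 ± 0.084 (SE, n = 6 per group), with an interval from -0.0027 to 0.365, which is among the tightest of the 25.

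AT3G58830, a phosphatase of phosphatidylglycerol synthesis in plastids, was at -0.07 ± 0.13 (SE). AT2G22890, a Kua family protein related to a plastid fatty acid desaturase, kept between 1.96 and 2.47 under water with a median of 2.23. Under paraquat it spread from 1.03 to 2.71 around a median of 2.18. Its medians almost met while the paraquat range was the wider, because paraquat samples 1 and 2 were low and samples 5 and 6 high. The difference of -0.21 ± 0.22 (SE) averages over that spread.

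AT4G27700 encodes a protein with a rhodanese-like domain. It ran from 0.395 to 2.62 under water with a median of 1.32, and from 0.389 to 1.67 under paraquat with a median of 1.37. Sample 1 was the lowest in both groups. The pooled spread of this gene was the widest of all 25 (SD 1.03 under water and 0.787 under paraquat), and its interval ran from -1.25 to 0.93 (0.421-fold to 1.91-fold). With the sample number as a block the interval narrowed to between -0.57 and 0.25. With neighbouring numbers averaged it widened to between -1.70 and 1.39. AT4G31530, with a Rossmann fold that binds NAD(P), ran from 10.5 to 20.99 under water with a median of 16.4. Its paraquat samples lay closer together, from 17.7 to 20.99 around 19.2, and the difference was 0.28 ± 0.17 (SE).

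The members grouped with nucleic acid proteins had differences from -0.34 to 0.36, 3 above 0 and 3 below. AT3G09850, a G-patch domain protein, was the brightest probe of the set, with a deposited mean of 41.1 ± 15.1 (SD, n = 6) for water against 59.9 ± 10.8 (SD, n = 6) for paraquat. It ranked 4th to 10th among the 3439 probes of a sample, and since quantile normalization sets a value by rank, several of its samples share a normalized value. Normalized, it ran from 29.2 to 57.9 under water with a median of 41.1 and from 41.5 to 57.9 under paraquat with a median of 51.1. The paraquat samples thus filled the upper part of the water range. The difference was 0.32 ± 0.20 (SE) after quantile normalization, 0.60 as deposited and 0.87 with cyclic loess.

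chr31 (AT1G05490), a chromatin remodeller of the SNF2 family, had the 1 interval of the 25 that left out 0 in the fit without pairing. It was chosen for fuller description after its values were seen. It ran from 0.952 to 1.47 under water with a median of 0.991, and from 1.23 to 1.54 under paraquat with a median of 1.39. Only water samples 5 and 6 reached the paraquat range, and 5 of 6 numbered pairs were higher under paraquat. The difference was 0.36 ± 0.12 (SE), with an interval from 0.093 to 0.62; with neighbouring sample numbers averaged (1 with 2, 3 with 4, 5 with 6) it ran from -0.094 to 0.81.

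AT3G49740, a pentatricopeptide repeat protein of the kind that binds organelle RNA, had nearly equal means, with a difference of -0.03 ± 0.26 (SE). Its samples ran from 0.885 to 2.36 under water with a median of 1.61, and from 1.17 to 1.85 under paraquat with a median of 1.48. Water samples 1 and 2 were below and the other 4 above or within the paraquat range, so the equality holds for the means and not for the samples. AT3G27550, with a CRM domain that binds RNA, showed the same form more strongly. It was at 0.339 to 1.73 under water with a median of 1.31, and at 0.948 to 1.19 under paraquat with a median of 1.11. Every paraquat sample lay in the empty middle of the water range, between samples 1 and 2 on the low side and samples 3 to 6 on the high side. The difference of the means was 0.11 ± 0.37 (SE).

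AT3G26580, a tetratricopeptide repeat protein, was at -0.06 ± 0.14 (SE). Such repeats do not by themselves mark a nucleic acid protein, so its place in this class is loose. AT3G19120, which resembles a transposase, had the lowest difference of all, -0.34 ± 0.21 (SE), and paraquat was the lower in 5 of 6 pairs.

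The signalling and stress genes had differences from -0.01 to 0.34, 3 above 0 and 1 below. ATSIK (AT3G08760), a protein kinase of osmotic stress signalling, had the smallest difference of the 25, -0.01 ± 0.11 (SE). It ran from 1.04 to 1.45 under water with a median of 1.26, and from 0.994 to 1.42 under paraquat with a median of 1.28. The ranges nearly coincided, and the interval from -0.256 to 0.227 stayed inside 0.4.

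CCL (AT3G26740) is known for a messenger whose stability follows the circadian clock. It ran from 3.52 to 16.9 under water with a median of 8.99, and from 9.08 to 11.4 under paraquat with a median of 9.43. The paraquat samples were close together, whereas water samples 1 and 2 lay far below and samples 3 and 6 above. The difference was 0.34 ± 0.36 (SE), with an interval from -0.45 to 1.14, up to 2.21-fold. AT5G52810, a reductase in the synthesis of the immune signal pipecolic acid, had the same shape, with 0.432 to 1.78 under water around 1.28 and 0.925 to 1.43 under paraquat around 1.22. Its difference was 0.28 ± 0.37 (SE). AT1G67800, a copine-like RING ubiquitin ligase, was at 0.19 ± 0.25 (SE), and its water samples again spread more than its paraquat samples (SD 0.623 and 0.153).

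In other metabolism and transport the differences ran from -0.27 to 0.37, 3 above 0 and 1 below. AT4G29890, related to choline monooxygenase, was among the 5 members of smallest pooled SD. It ran from 1.54 to 2.09 under water around 1.77 and from 1.55 to 2.13 under paraquat around 1.88. The ranges were almost the same and the difference was 0.06 ± 0.10 (SE). AT1G01500, of the erythronate-4-phosphate dehydrogenase family, ran from 0.962 to 2.54 under water with a median of 1.36 and from 1.04 to 1.49 under paraquat with a median of 1.299. Here water samples 1 and 2 were the high ones, opposite to CCL. Its difference was -0.27 ± 0.25 (SE).

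AT2G29870, an aquaporin-like protein, had the highest difference of the 25, 0.37 ± 0.27 (SE). It ran from 0.868 to 1.88 under water around 1.56, and from 1.14 to 2.62 under paraquat around 1.95. The groups overlapped widely, yet each paraquat sample was above the water sample of the same number. Samples 1 and 2 were low in both groups. With the sample number as a block the SE was 0.11 and the interval, from 0.12 to 0.63, left out 0. With neighbouring numbers averaged the interval of AT2G29870 ran from -0.60 to 1.35 and held 0. AT1G73740, of the UDP-glycosyltransferases, was at 0.23 ± 0.21 (SE).

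The 6 genes given no role had differences from -0.30 to 0.14. AT4G13680 ran from 1.87 to 3.27 under water with a median of 2.84, and from 1.998 to 2.58 under paraquat with a median of 2.39. Its paraquat samples lay inside the water range. AT2G47360 ran from 1.61 to 2.34 around 1.83 under water and from 1.77 to 2.36 around 2.02 under paraquat. It was higher under paraquat in all 6 pairs, by a mean of only 0.13 ± 0.12 (SE).

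AT5G06790 ran from 1.19 to 2.39 around 1.61 under water and from 1.70 to 2.11 around 1.83 under paraquat. AT2G26110 ran from 0.876 to 1.84 around 1.54 under water and from 1.16 to 1.75 around 1.27 under paraquat. In both genes the paraquat samples stayed inside the water range. AT1G07460 ran from 1.04 to 2.13 around 1.66 under water and from 0.878 to 1.49 around 1.40 under paraquat. It was lower under paraquat in all 6 pairs, by -0.30 ± 0.18 (SE). With the sample number as a block its SE was 0.077 and the interval, from -0.48 to -0.11, left out 0. With neighbouring numbers averaged its interval ran from -0.65 to 0.059 and held 0. AT1G01730 had the smallest pooled spread, with 1.12 to 1.29 around 1.19 under water and 0.934 to 1.26 around 1.18 under paraquat. Its difference was -0.06 ± 0.083 (SE).

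Nearest the limit on the inside were AT2G29870 (0.37), chr31 (0.36) and CCL (0.34). The nearest on the outside were AT2G11270 (-0.40), AT3G19810 (0.44) and AT1G50390 (-0.45), so no gap parts members from the rest.

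The members varied more among the water samples than among the paraquat samples. The SD over the 6 water samples was larger than that over the 6 paraquat samples in 20 of 25 genes, with medians of 0.405 and 0.182. Among the 62 other bright probes of 1 gene (12 at least 0.4 higher and 50 at least 0.4 lower under paraquat), 38 had the larger SD under water, with medians of 0.215 and 0.185. Over the 3186 probes without a zero, 67.7% had the larger SD under water, with medians of 0.338 and 0.242. The members' median spread under paraquat was thus close to that of the other bright probes, and their median spread under water was the largest of the 3 sets. These differences in spread were not tested.

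**Figure D3:**
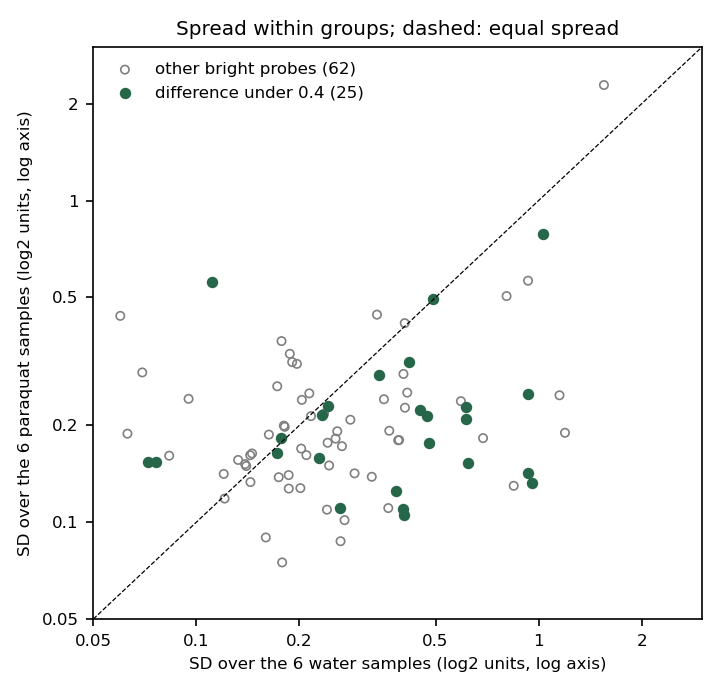
SD over the 6 water samples (x axis) against SD over the 6 paraquat samples (y axis), both of log2 values and on log axes, for the 25 genes (filled) and the 62 other bright probes of 1 gene (open). Of the 25 filled points, 20 lie below the dashed line of equal spread.

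Much of the water spread lay between sets of neighbouring numbers (1 with 2, 3 with 4, 5 with 6) and little within them. The median SD between neighbour means was 0.427 under water, against 0.110 within neighbours. The SD between means was the larger in 21 of 25 genes. Under paraquat the medians were 0.166 and 0.116, and the SD between means was the larger in 19 of 25. No share over all probes is given for these counts, so nothing particular to the members is read from them. One part of the spread between neighbour means was a step between samples 1 and 2 and samples 3 to 6. Under water, samples 1 and 2 were both below the other 4 in 10 of 25 genes and both above them in 5, together 15 of 25, while 43.0% of all probes without a zero were so split. Under paraquat the same held for 14 of 25, 5 below and 9 above, against 35.5% of all probes. The size of the step differed between groups: its largest value was 1.76 under water (AT3G27550) and 1.15 under paraquat (AT4G27700). In 12 genes the step had the same sign in both groups and in 13 the opposite sign. The labels do not say what the numbers stand for, and their part in these values was not tested.

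**Figure D4:**
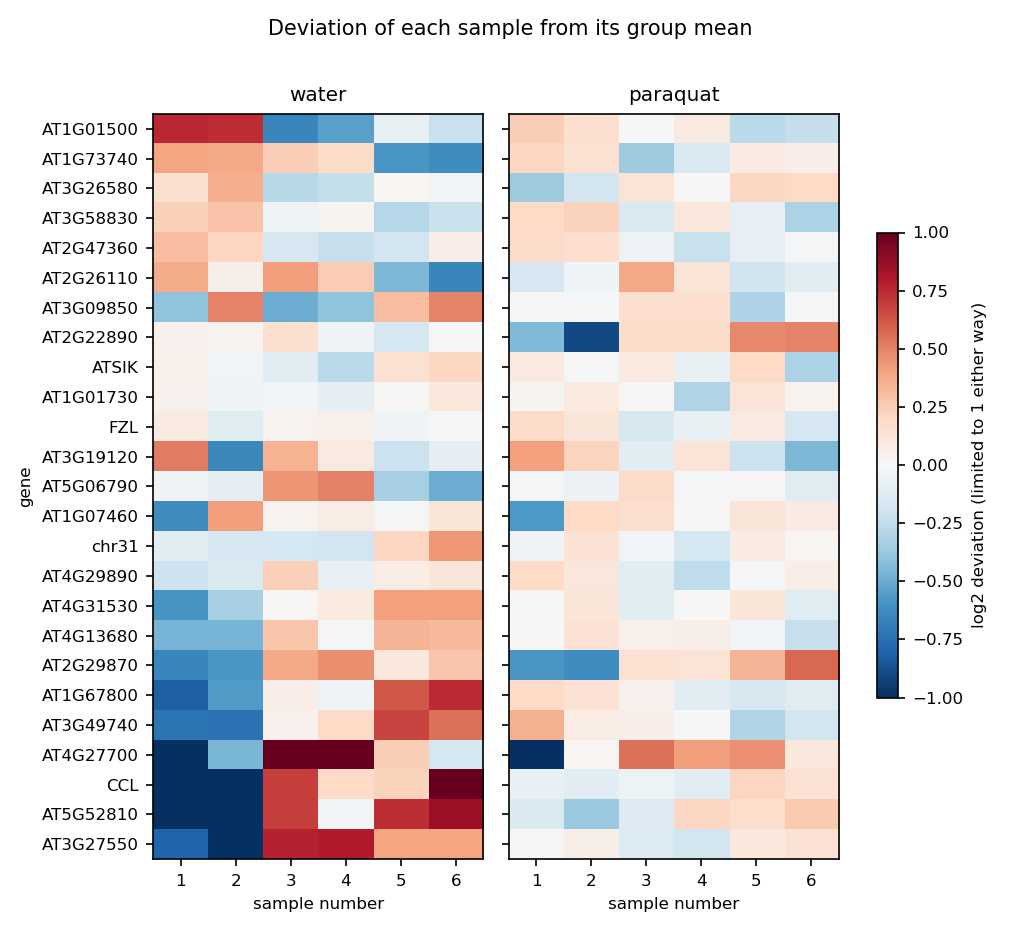
Deviation of each sample from the mean of its group on the log2 scale (colour, limited to 1 either way) for each gene (rows) and sample number (columns), water on the left and paraquat on the right. At the bottom, AT3G27550, AT5G52810, CCL and AT4G27700 are low in water samples 1 and 2, and the paraquat columns of the first 3 are paler.

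Taken within samples 1 and 2, 2 per group, the paraquat mean differed from the water mean by 0.4 or more in 10 of 25 genes, 7 higher and 3 lower. Within samples 3 to 6, 4 per group, it did so in 4 genes, all lower. These are 40% and 16% of the members, against 38.8% and 15.1% of the 1110 probes without a zero whose overall difference was under 0.4. CCL was at 1.37 in samples 1 and 2 and at -0.17 in samples 3 to 6. AT3G27550 was at 1.32 and -0.50, AT5G52810 at 1.15 and -0.16, AT1G67800 at 1.06 and -0.24, and AT3G49740 at 0.92 and -0.50. In these 5 genes both subset differences had opposite signs and partly cancelled in the mean over all samples. The values of CCL, AT5G52810 and AT1G67800 in samples 3 to 6 were small, and no standard error is given for the subsets. The split was made after the data were examined, and whether the signs differ was not tested.

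The reverse order was seen in AT2G22890, at -0.92 in samples 1 and 2 and 0.15 in samples 3 to 6, and in AT3G26580, at -0.60 and 0.21. AT4G31530 was at 0.81 in samples 1 and 2 and at 0.02 in samples 3 to 6, and AT1G01500 at -0.81 and 0.00. In 15 of 25 genes (60%) the signs of both subsets differed, against 44.9% of those 1110 probes and 17.3% of all probes without a zero. The difference over all samples is a weighted mean of both subset differences, and the rule keeps it small. Opposite signs are thus favoured by the choice, and nothing is read from the contrast with 17.3%. Under 0.4 in both subsets were 13 of 25 (52%), against 50.5% of the 1110. The differences between these shares were not tested.

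The place of the genes under the limit also depended on the scaling. The median difference of all probes was -0.04 after quantile normalization, 0.19 with values as deposited and -0.16 with median centring, and the members' medians moved with it, at 0.06, 0.18 and -0.16. As deposited, 20 of 25 genes were above 0 and 5 below, and with median centring 5 were above and 20 below. Median centring lowers the difference of every probe by the same 0.344 from its value as deposited, so this turn of signs is fixed by the shift. Under 0.4 were 21 of the 25 as deposited, 20 with median centring and 21 with cyclic loess.

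A further scaling centred each sample by the place of a probe in a repeating period of the probe numbers, which was taken from earlier work on these data and not measured again here. It left 13 of 25 under 0.4, with 6 genes past it on either side. AT2G29870 then stood at 1.04, AT4G31530 at 0.92, chr31 at 0.79 and AT4G29890 at 0.73, while AT1G07460 stood at -0.85, AT1G01500 at -0.75 and AT1G01730 at -0.65. AT4G29890 and AT1G01730 moved past the limit although both had a small spread between samples. Across the 5 scalings 9 genes kept under 0.4 in each: AT2G47360, AT5G06790, AT1G67800, AT3G49740, AT2G26110, AT1G73740, FZL, AT3G26580 and AT3G27550. The sign stayed the same in 6 genes, above 0 for AT3G09850, AT2G29870 and chr31 and below 0 for AT1G01500, AT1G07460 and AT3G19120.

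**Figure D5:**
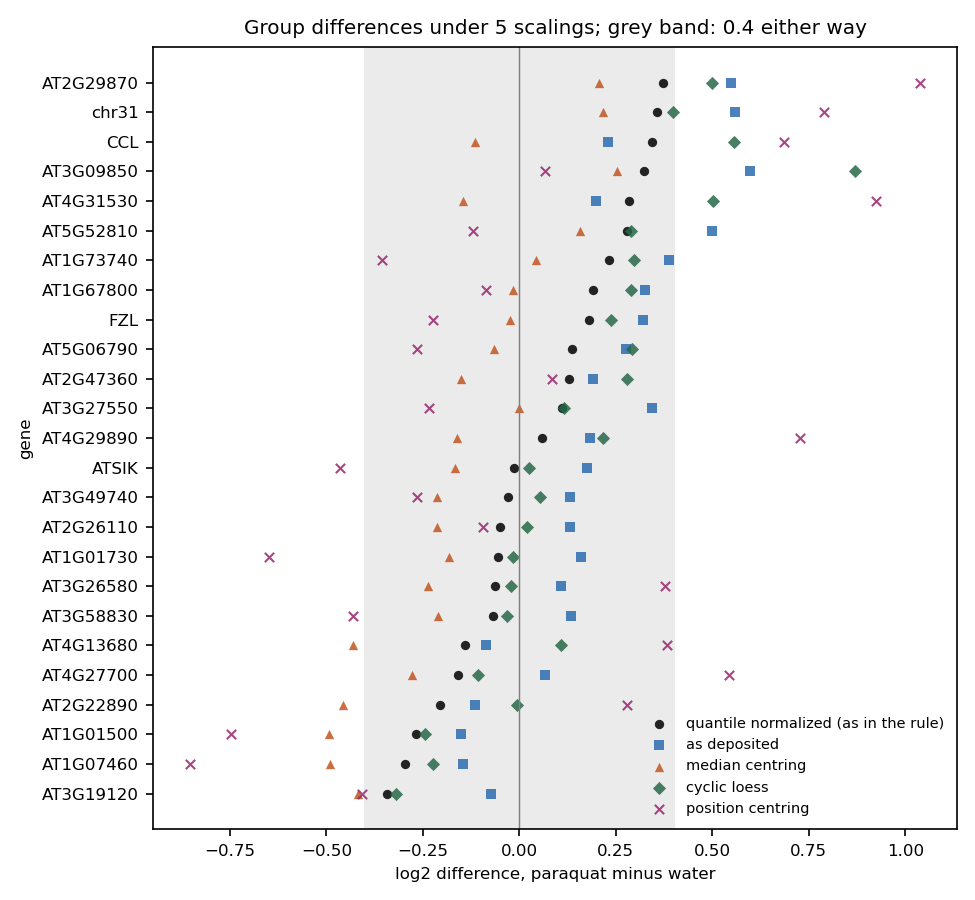
Paraquat minus water in log2 units (x axis) for each gene (y axis) under 5 scalings, each with its own symbol; the grey band is 0.4 either way. Squares for values as deposited lie to the right of the circles of the rule for most genes, triangles for median centring lie to the left, and crosses for position centring scatter most, from -0.85 to 1.04.

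FZL and AT2G47360 were the 2 genes that kept under 0.4 in all 5 scalings, kept under it both in samples 1 and 2 and in samples 3 to 6, and had an interval inside it in the fit without pairing. With neighbouring numbers averaged neither interval stayed inside it, at -0.14 to 0.51 for FZL and -0.32 to 0.57 for AT2G47360. Paraquat was the higher in 5 of 6 numbered pairs for FZL and in 6 of 6 for AT2G47360. These requirements use the same contrast and limit that chose the members. Meeting them is therefore a description and does not show that either gene is steady. FZL was at 0.35 and 0.10 in the subsets, and from -0.22 to 0.32 over the scalings. AT2G47360 was at 0.05 and 0.17 in the subsets, and from -0.15 to 0.28 over the scalings. ATSIK met the requirements on the subsets (0.02 and -0.03) and the interval, and left the limit only after position centring (-0.47).

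The share of small differences was also set beside that of other probes. Of the 92 bright probes of 1 gene, 32.6% lay under 0.4 before the named genes were left out, against 36.8% of the 544 dimmer probes of 1 gene and 34.1% of all probes. Over all bright probes without a zero, whatever their number of genes, it was 28.0% of 561. The bright probes of 1 gene beyond the limit were mostly lower under paraquat, 50 of 62, and the median difference of the 92 was -0.55. The intensity minimum was set on the water samples alone, which favours probes that are lower under paraquat. Of 327 dimmer probes of 1 gene (water mean under 0.5), 143 were at least 0.4 higher and 66 lower. Their median difference was 0.27. The direction among the 92 is therefore not read as a result. The shares under 0.4 were not tested against each other.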

How the data were processed

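The deposited table holds array intensities on a linear scale for 3439 probes and 12 samples; the authors' scanning, background correction and scaling are not given in the sources used here. Zeros, 108 to 148 per column, took their column's smallest positive value, the columns were quantile normalized, and log2 was taken. A linear model per probe over all 12 samples was fitted in limma 3.58.1 (lmFit, then eBayes; R 4.3.3), without a block and with Benjamini-Hochberg adjustment over all probes at 0.05; intervals use the moderated standard error. Arrays have no read depth, and precision rests on the spread between samples as well as on their number. With 6 samples per group the standard errors of the members ran from 0.083 to 0.50.

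Probes were named through the platform annotation, updated by gene identifier from RefSeq TAIR10.1: 692 probes had 1 gene (690 matched in RefSeq), 870 had several and 1877 were not listed. All 25 members matched and are protein coding. Members, gene lists and the rule for named genes were chosen with earlier results of these data known. That rule gives values per group for the 10 brightest members, the 5 of smallest and 5 of largest pooled SD and the 3 smallest differences. The genes nearest the limit are named once, and any member may be named. Values given for any other member, among them the ranges of chr31, were chosen after they were seen.

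Alternatives were values as deposited, median centring, cyclic loess, a pseudocount of 0.1, other limits, group medians, each sample left out, the replicate number as a block, neighbouring numbers averaged (1 with 2, 3 with 4, 5 with 6), and position centring, which subtracts a running median over 6 probe numbers to either side along the repeating period of the probe numbers (taken from earlier work on these data). Leaving out numbers 1 and 2 was added after the data were examined. Deviations from the group means correlated between equal numbers at 0.337 to 0.505 over 3186 probes. By the rule used, equal numbers count as pairs, since the labels do not say what the numbers mean. No correlation between unequal numbers is given here, so these values cannot show that equal numbers are true pairs. Figures were drawn with matplotlib 3.10.9.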

Additional observations from a re-analysis of the deposited data

Results flagged for a closer look

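In 3 of 50 groups of 6 samples, 25 genes in each of 2 treatments, 1 sample stood off from the other 5 (Dixon's test for an outlying value, 95% level), where about 2.5 would be flagged by chance. AT1G07460 was at 0.878 in paraquat sample 1 and between 1.31 and 1.49 in the others. AT4G27700 was at 0.389 in paraquat sample 1 and between 1.15 and 1.67 in the others. AT1G01730 was at 0.934 in paraquat sample 4 and between 1.16 and 1.26 in the others. The values are normalized intensities.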

How the results depend on the processing

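Of the 25 genes, 13 kept under 0.4 after position centring; the other scalings, the pseudocount and group medians kept 20 to 25. Leaving out 1 sample at a time kept 20 to 25, lowest without water sample 6, and leaving out numbers 1 and 2 kept 21. The rule itself applied anew found 21 to 26 genes with 1 sample left out, 105 with an intensity minimum of 0.5, 5 with a minimum of 2, 20 with a limit of 0.3 and 29 with a limit of 0.5. Of all probes, 1805 passed limma's threshold, 1964 in the paired fit that takes the replicate number as a block, 1598 after position centring and 1680 to 1813 with 1 sample left out. Averaging neighbouring numbers first left 1160. Among the members 1 passed in the main fit, 3 with the block (chr31, AT2G29870 and AT1G07460) and 0 with neighbours averaged. The median standard error over the members was 0.199, 0.167 with the block, 0.248 with neighbours averaged and 0.156 without numbers 1 and 2. With neighbours averaged the interval extended a median of 0.617 to either side, and 2 of 25 intervals stayed inside 0.4, those of ATSIK (-0.38 to 0.35) and AT1G01730 (-0.38 to 0.27). If neighbouring numbers are repeated readings, these wider intervals apply.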

Other observations

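Genes in common use as steady references were nearly all without a probe of their own: of 26 such genes on the list, 1 had a probe with 1 gene. This was AT2G28390, a SAND family gene, which stayed out of the set because its mean deposited intensity under water was 0.762. Its difference was 0.11 on the log2 scale. Of 49 genes of the photosystems and electron transport, 4 had a probe of their own and all 4 were bright; PSAN (-0.06), PSBY (-0.38) and PSBW (0.34) were left out by name, and LHB1B2 was at -0.66. None of the 10 green tissue markers or 5 root markers had a probe of its own, so the plant material could not be checked in that way.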
